A study of Mus musculus with 4 samples.

Results

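The clustered histone genes are the mouse genes named Hist1h, Hist2h, Hist3h and Hist4h, which lie close together in a few places of the genome. They were taken as every gene probe of the array whose gene name begins with one of those 4 stems. The rule uses the gene name alone. It gave 47 probes for 42 genes, out of 40628 gene probes for 29411 gene names on the array. Of these probes, 7 were for linker histone H1, 16 for H2A, 10 for H2B, 7 for H3 and 7 for H4. Through RefSeq (assembly GRCm38.p6), 46 of the 47 probes were matched to a current gene. The 35 Hist1 probes belong to chromosome 13, the 7 Hist2 probes to chromosome 3 and the Hist4 probe to chromosome 6, and the matched Hist3 probes belong to chromosome 11.

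RNA came from C3H10T1/2 cells, a mouse embryo fibroblast line, that had been transformed in culture by chemicals. All 4 samples shared that history: 2.5 µg/ml of the carcinogen 3-methylcholanthrene (3MC) for 2 days, fresh medium for 4 days, the tumour promoter TPA at 100 ng/ml over 2 weeks, and normal medium for a further 4 weeks. For the control group (n = 2 arrays) the labels name no further exposure. The phorone group (n = 2 arrays) was exposed to phorone, written PHO in the labels, at 2 mM. Phorone is an unsaturated ketone that binds to glutathione and lowers its level in cells. Exposure length, vehicle, and whether transformed foci were isolated from the cells around them are not given in these sources. Nothing in the labels says that the samples of a group were separate cultures. The p-values rest on the spread between these samples alone, and that spread may be technical.

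Core histones H2A, H2B, H3 and H4 form the spool around which DNA is wound, and H1 binds the DNA where it enters and leaves that spool. Clustered histone genes are switched on when DNA is copied in S phase. Their mRNAs mostly end in a short conserved stem-loop, bound by the protein Slbp, in place of a poly(A) tail, although some also have polyadenylated forms. Per the labels' protocols, the labelling reaction was primed with oligo(dT), which pairs with poly(A). The levels below therefore concern the histone RNA that this primer could copy, and the share of each transcript with a poly(A) tail was not measured. Many genes of a histone type are near-identical, so a probe can take signal from several of them.

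Levels are log2 intensities relative to the 75th percentile of the same array, so 0 is that percentile and 1 unit is a factor of 2. Levels of different probes cannot be set against each other. A probe was tested if both arrays of the control or of the phorone group read it well above background, and was called where limma's adjusted p was below 0.05. Of the 47 probes 45 were tested, and 43 were well above background on all 4 arrays. The probes for Hist2h2ab and Hist3h2ba were well above background on none. Across genes the 2 control arrays correlated with r = 0.987, the 2 phorone arrays with r = 0.995, and arrays of different groups with 0.936 to 0.951. All 10 fibroblast markers were well above background on all 4 arrays, and their summed linear level was 1578 and 1635 in the controls against 688 and 726 with phorone. With the brightest tested probe standing for each gene, 6 of these markers were called lower, against 21.1% of all genes so measured. Fn1 (-0.08), Col1a1 (-0.30), Vim (-0.36) and Thy1 (-0.46) were not called. The 3 Col1a1 probes ran from -2.22 to -0.30, the 3 Fn1 probes from -0.08 to 0.28 and the 2 Thy1 probes from -0.46 to 0.25. Of 7 markers each, 3 epithelial, 2 blood and 2 male germ cell markers were well above background on all 4 arrays, with summed levels below 1 on every array. Whether these marker values bear on the histone values was not tested. All arrays shared 1 slide; since each group filled a row of its own, an effect of the row and one of phorone cannot be told apart.

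The histone genes did not move as 1 block. Linker histone probes changed in both directions, several H2A and H2B probes fell, a pair of dim H3 probes rose, and no H4 probe was called. In all, 3 of the 45 tested probes rose and 9 fell, which makes 26.7% called. Over all 24207 gene probes tested, 45.8% were called, 25.3% higher and 20.4% lower. The shares that fell among all histone probes, 9 of 45, and among H2A probes, 3 of 15, and that rose among H3 probes, 2 of 7, were near these backgrounds. The shares that fell among H1 probes, 3 of 7, and H2B probes, 3 of 9, were above 20.4%, on few probes. In either direction 57.1% of H1, 33.3% of H2B and 0 of 7 H4 probes were called, against 45.8%. Whether a type differs from the background was not tested. The arrays of the groups did not overlap for 32 of the 45 probes, against 77.9% of all tested probes. The median difference of the histone probes was -0.17, against 0.10 over all tested probes, and 29 lay below zero and 16 above. The median size of the difference, sign aside, was 0.37 for histone probes and 0.48 for all probes. In bulk RNA, changes in the share of cells in S phase, in histone RNA per cell and in its share with a poly(A) tail cannot be told apart. Scaling to the spike-in controls, RNAs added at known amounts, moved the median of all probes to 0.54 and that of the histone probes to 0.27. With that scaling 25.0% of all tested probes were called, and 4 histone probes were called higher and 2 lower. The median of the histone probes was -0.33 without control replicate 1 and -0.06 without control replicate 2. It was -0.21 without phorone replicate 1 and -0.15 without phorone replicate 2. Fewer histone probes were called lower under each omission, which leaves 1 array in a group. A smaller share of all tested probes was called under each omission too. Smaller counts under an omission, here and below, are thus not particular to the genes counted.

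**Figure D1:**
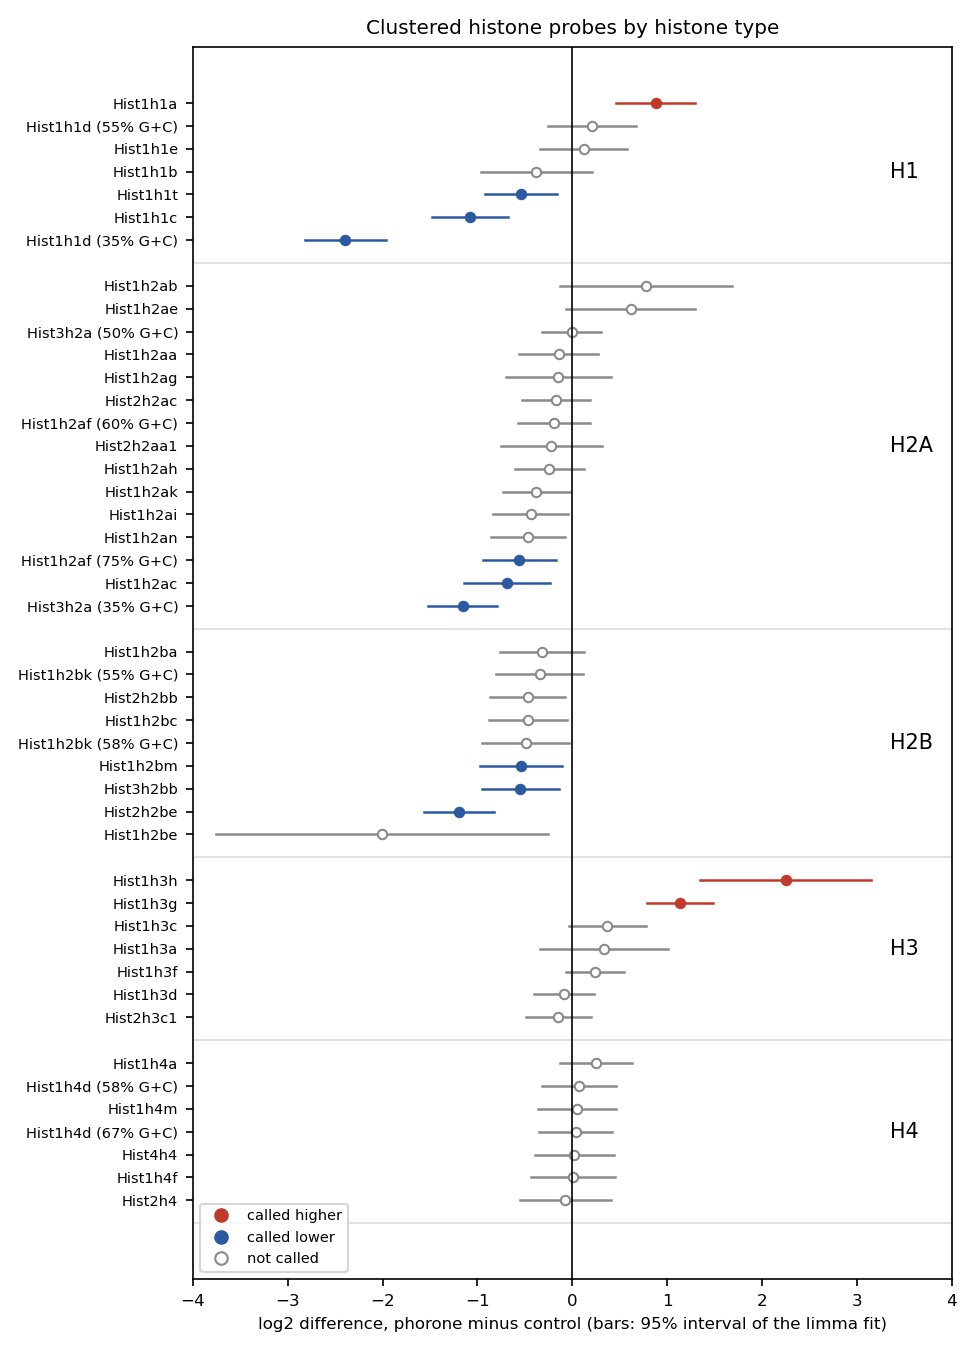
Log2 difference (phorone minus control, n = 2 arrays each) of the 45 tested histone probes, in order within each histone type, with the 95% interval of the limma fit. Filled red points were called higher (3) and filled blue points lower (9), open points were not called, and all 7 H4 probes lie close to zero. Under spike-in scaling the H4 probes lie between 0.37 and 0.69, still not called, and 1 or more H2B probes lie above zero.

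Among the 7 probes for linker histones, 3 fell and 1 rose. Among histone probes well above background on all 4 arrays, the largest fall was on a Hist1h1d probe (current symbol H1f3). It read 2.11 and 2.02 in the controls and -0.15 and -0.50 with phorone. Both phorone arrays lay far below both control arrays. The difference was -2.39 (SE 0.17, limma adjusted p = 0.000879), a 5.26-fold fall. Hist1h1c (H1f2) encodes another linker histone of dividing and resting cells and had the brightest H1 probe. It read 6.79 and 6.65 in the controls and 5.79 and 5.50 with phorone, and the groups did not overlap. It fell by 1.08 (SE 0.16, limma adjusted p = 0.00560). Hist1h1t (H1f6), the linker histone of developing sperm cells, was dim throughout, at -3.90 and -4.07 in the controls and -4.63 and -4.42 with phorone. It was called lower by 0.54 (limma adjusted p = 0.0350), but its difference was 0.02 where another background correction (normexp) was used. Without control replicate 1, control replicate 2, phorone replicate 1 or phorone replicate 2 its adjusted p was 0.1004, 0.0552, 0.192 and 0.0871.

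Hist1h1a (H1f1) moved the other way. It read -3.65 and -3.89 in the controls and -3.01 and -2.76 with phorone, and every phorone array lay above every control array. It rose by 0.88 (SE 0.16, limma adjusted p = 0.0111), although without phorone replicate 2 the difference of 0.75 missed the threshold (adjusted p = 0.0639). Hist1h1e (H1f4) differed by 0.12, with an interval from -0.34 to 0.58, and Hist1h1b (H1f5) by -0.38, with an interval from -0.96 to 0.20; neither was called. The second Hist1h1d probe read -0.77 and -1.15 in the controls and -0.66 and -0.85 with phorone. Its arrays overlapped, and its difference of 0.21 (interval -0.25 to 0.67) was not called.

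H1 genes are known for a shared upstream promoter element, the H1 box, AAACACA. It was searched on both strands in the 300 bases from 250 before to 50 after each start, for the 36 histone genes with a RefSeq promoter entry. It was found in 5 of 6 H1 promoters, 2 of 14 for H2A, 2 of 6 for H2B, and none of the 5 for H3 or the 5 for H4, against 7.18% of 32851 promoters. The H1 promoter without these letters was that of Hist1h1a, the H1 gene whose probe rose. The 130 bases before the start of 3 H1 genes are printed to show this, with the H1 box and the CCAAT element in capitals (GRCm38.p6, all plus strand): Hist1h1d at chr13:23554902-23555031, Hist1h1c at chr13:23738677-23738806 and Hist1h1a at chr13:23763538-23763667.
Hist1h1d: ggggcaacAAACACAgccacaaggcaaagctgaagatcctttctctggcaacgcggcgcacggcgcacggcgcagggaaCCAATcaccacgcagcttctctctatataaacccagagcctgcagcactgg
Hist1h1c: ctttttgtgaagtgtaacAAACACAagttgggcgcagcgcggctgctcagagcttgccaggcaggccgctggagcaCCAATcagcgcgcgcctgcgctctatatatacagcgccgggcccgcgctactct
Hist1h1a: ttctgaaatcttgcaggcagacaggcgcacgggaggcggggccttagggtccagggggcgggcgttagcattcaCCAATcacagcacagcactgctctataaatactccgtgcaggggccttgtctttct

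The H1 box starts 122 bases before the start of Hist1h1d and 112 before that of Hist1h1c, and CCAAT lies 51, 54 and 56 bases before the start of Hist1h1d, Hist1h1c and Hist1h1a. A match of letters is a description of the sequence, and Hist1h1e and Hist1h1b, which were not called, hold the H1 box too. Of the other elements searched on both strands, CCAAT was in 33 of the 36 histone promoters (37.4% of all promoters) and TATAAA in 23 (13.6%). The octamer ATTTGCAT, to which the transcription factor Oct1 (gene Pou2f1) binds, was in 7 of 14 H2A and 4 of 6 H2B promoters and in no H1, H3 or H4 promoter (1.74% of all). In 0 of the 36 promoters did matches of different motifs overlap.

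The 16 H2A probes stand for 14 genes, of which 15 probes were tested. None rose by limma, nor had any a positive difference at an unadjusted p below 0.05, and 3 fell. Of the 15 differences, 13 were below zero. Under spike-in scaling no H2A probe was called lower, 1 was called higher, and the median moved from -0.22 to 0.22. Hist3h2a (H2aw) lies in the small Hist3 group. One of its probes read 3.89 and 3.88 in the controls and 2.85 and 2.61 with phorone, with no overlap. It fell by 1.15 (SE 0.14, limma adjusted p = 0.00368). A Hist1h2ac probe fell from -3.86 and -3.49 to -4.45 and -4.27, by 0.69 (SE 0.18, limma adjusted p = 0.0299), though its difference was -0.12 and not called with normexp. A Hist1h2af probe fell from 2.82 and 3.103 to 2.43 and 2.38, by 0.56 (SE 0.15, limma adjusted p = 0.0335). The latter 2 calls were close to the threshold. Without control replicate 2, phorone replicate 1 or phorone replicate 2 the adjusted p of Hist1h2ac was 0.0776, 0.130 and 0.0740, and that of Hist1h2af 0.0817, 0.118 and 0.155. The number of H2A probes called lower was then 1 in each case, and 1 H2A probe was called higher without control replicate 2.

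Many H2A genes encode proteins that differ at few positions, and their probes show how much sequence they share. The probes for Hist1h2ah, Hist1h2af and Hist1h2aa hold a common run of 44 bases, in capitals here, so a transcript of any of them could bind to all 3 probes.
Hist1h2ah: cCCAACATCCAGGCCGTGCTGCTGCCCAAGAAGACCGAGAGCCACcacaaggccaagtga
Hist1h2af: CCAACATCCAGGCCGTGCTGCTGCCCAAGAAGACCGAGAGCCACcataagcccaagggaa
Hist1h2aa: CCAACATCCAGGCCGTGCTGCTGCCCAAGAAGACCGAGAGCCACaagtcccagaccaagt

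None of the 3 was called. Hist1h2ah read 6.88 and 7.13 in the controls and 6.78 and 6.75 with phorone, a difference of -0.24 (interval -0.61 to 0.13). The Hist1h2af probe of this trio read 6.73 and 6.997 against 6.71 and 6.63, and Hist1h2aa, an H2A gene of the testis, read 6.66 and 6.99 against 6.75 and 6.61. Control replicate 1 lay below control replicate 2 for all 3 and close to the phorone arrays. That gap between the controls was shared widely: control replicate 2 was the higher control for 13 of the 15 tested H2A probes. It was the higher one for 24 of the 28 histone probes with 50% G+C or more, and for 73.7% of all tested probes with at least 48% G+C, against 54.4% of all tested probes. The other H2A probes without a call ran from Hist1h2an, at -0.46 (adjusted p = 0.0592 by limma), through Hist1h2ai (-0.44), Hist1h2ak (-0.38), Hist2h2aa1 (-0.22), Hist2h2ac (-0.17) and Hist1h2ag (-0.15) to Hist1h2ae (0.61) and Hist1h2ab (0.78).

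H2B was the type whose tested probes all lay below zero under the main scaling, 9 of 9, although under spike-in scaling they ran from -1.56 to 0.12. Of the 9, 3 were called lower. Hist2h2be (H2bc21), an H2B gene also used outside S phase, read 0.39 and 0.58 in the controls and -0.62 and -0.79 with phorone. The groups were well apart, and it fell by 1.19 (SE 0.15, limma adjusted p = 0.00357). Hist3h2bb fell from 4.72 and 4.76 to 4.36 and 4.03, by 0.55 (limma adjusted p = 0.0418). Hist1h2bm fell from 4.81 and 4.85 to 4.47 and 4.10, by 0.54 (limma adjusted p = 0.0496). Both of these smaller calls were lost without any of the 4 arrays, with an adjusted p of 0.0546 to 0.245 for Hist3h2bb and 0.0512 to 0.273 for Hist1h2bm. The number of H2B probes called lower was 1 without control replicate 1 and 1 without control replicate 2.

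The Hist1h2bm call and its neighbour below the threshold come from almost the same probe. The probe for Hist1h2bm and a probe for Hist1h2bk share a run of 52 bases and differ by A53G and G54A, counted from the 5′ end of the probe with the Hist1h2bm base first. The changed bases are in capitals.
Hist1h2bm: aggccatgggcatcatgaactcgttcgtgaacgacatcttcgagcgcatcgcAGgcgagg
Hist1h2bk: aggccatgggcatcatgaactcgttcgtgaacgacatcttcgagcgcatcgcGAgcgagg

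The Hist1h2bk probe read 4.77 and 4.78 in the controls and 4.50 and 4.08 with phorone, a difference of -0.49 (interval -0.95 to -0.03, limma adjusted p = 0.0770). The array design lists 9 RefSeq accessions for it. The call thus separated probes whose differences, -0.54 and -0.49, lie closer together than the SE of either (0.17 and 0.18). Hist1h2bc, the brightest H2B probe, read 4.90 and 4.88 against 4.59 and 4.25, a difference of -0.47 (limma adjusted p = 0.0661). Hist2h2bb (-0.47), the other Hist1h2bk probe (-0.34) and Hist1h2ba, an H2B gene of the testis (-0.32), were not called. Hist1h2be read -4.02 and -4.02 in the controls and was not well above background on either phorone array. With each phorone level taken as no lower than the dimmest probe read well above background on that array, the fall was 1.57-fold. That floor is not a detection limit. On the measured levels the limma adjusted p was 0.0649, and Hist1h2be was not called. Phorone replicate 2 lay below phorone replicate 1 for 8 of the 9 H2B probes and all 7 H4 probes, against 48.4% of all tested probes.

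**Figure D2:**
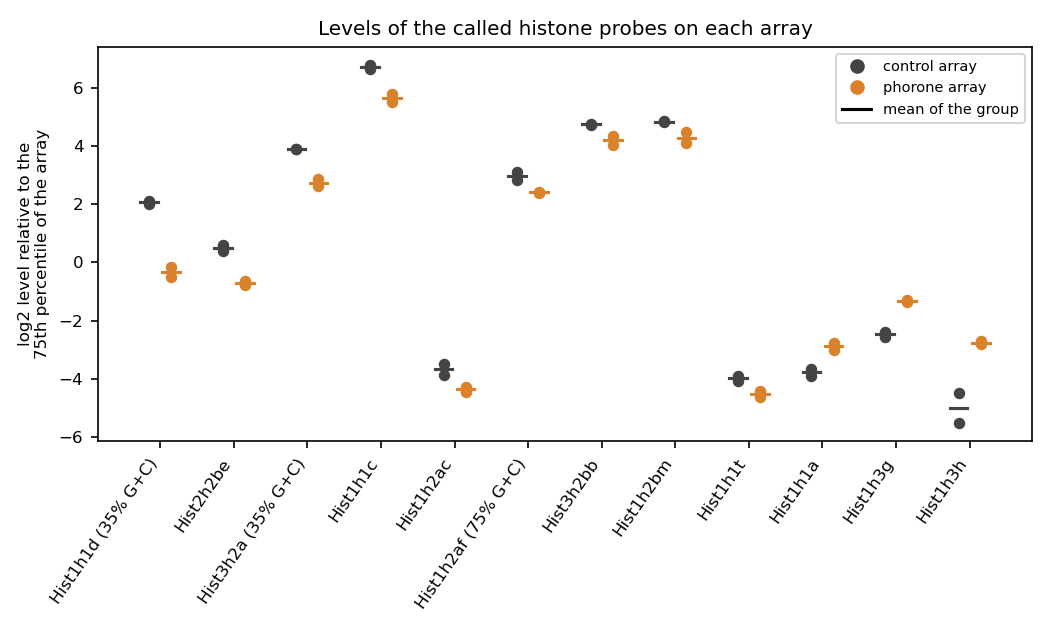
Log2 level on each array of the 12 called histone probes, ordered by their difference, with group means as bars (n = 2 arrays each). In all 12 the phorone arrays lie wholly above or wholly below the control arrays; levels of different probes are not comparable.

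For H3, 2 of 7 probes rose and none fell by limma, with 0 lower at an unadjusted p below 0.05. Hist1h3h (H3c10) read -5.53 and -4.48 in the controls, where it was well above background on 1 of 2 arrays, and -2.69 and -2.82 with phorone. The phorone arrays lay close together and far above the controls, which were themselves 1 unit apart. It rose by 2.25 (SE 0.35, limma adjusted p = 0.00704), and by 1.06 with normexp. Hist1h3g (H3c8) read -2.38 and -2.55 against -1.29 and -1.37, with no overlap, and rose by 1.13 (SE 0.14, limma adjusted p = 0.00341). Both calls held under every omission of an array. The brightest H3 probe was that for Hist2h3c1, at 7.66 and 7.82 in the controls and 7.56 and 7.62 with phorone. Its difference of -0.15 (interval -0.49 to 0.19) was not called. Hist1h3d (-0.09), Hist1h3f (0.24), Hist1h3a (0.34) and Hist1h3c (0.37) were not called either.

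H4 is the type with no called probe: 0 of 7 by limma and 0 at an unadjusted p below 0.05, with differences from -0.07 to 0.25 and 95% intervals that lie between -0.55 and 0.63. The brightest, Hist1h4f, read 4.70 and 4.82 in the controls and 4.96 and 4.58 with phorone. The phorone arrays lay on either side of the controls, and the difference was 0.01 (SE 0.17). Hist4h4, the lone gene of its group, read 1.29 and 1.14 against 1.40 and 1.08, a difference of 0.02 (SE 0.16). The groups were apart for a single H4 probe, that of Hist1h4a, at 2.53 and 2.49 against 2.90 and 2.62. Hist2h4 differed by -0.07, Hist1h4m by 0.05, and the 2 Hist1h4d probes by 0.04 and 0.07. These probes are not independent of each other. One Hist1h4d probe and the Hist1h4f probe share a run of 50 bases, in capitals, and list 9 and 8 RefSeq accessions.
Hist1h4d: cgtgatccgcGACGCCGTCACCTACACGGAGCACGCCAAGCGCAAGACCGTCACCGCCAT
Hist1h4f: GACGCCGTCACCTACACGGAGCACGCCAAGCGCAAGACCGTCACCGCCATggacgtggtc

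Over all histone probes, 12 list more than 1 RefSeq accession and 18 share a run of at least 20 bases with the probe of another histone gene. Of the 12, none rose and 2 fell (16.7% called). Of the 18, 1 rose and 3 fell (22.2% called). Over all tested gene probes 45.8% were called, 25.3% higher and 20.4% lower, so the shares that fell were near the background.

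Genes measured by a pair of probes show how far values can differ between probes of the same gene name. There were 5 such genes. For Hist1h1d the probe that fell by 2.39 has 35% G+C, and the probe that differed by 0.21 has 55%. For Hist3h2a the probe that fell by 1.15 has 35% G+C, and its partner, with 50%, read 4.35 and 4.35 in the controls and 4.37 and 4.32 with phorone, a difference of -0.01 (interval -0.32 to 0.30). The G+C-rich probe is given whole and the A+T-rich one by its first 30 bases, to show the contrast.
Hist1h1d, 55% G+C: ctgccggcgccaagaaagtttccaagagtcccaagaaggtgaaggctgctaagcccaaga
Hist1h1d, 35% G+C: tgtgtaatcagatgtttgtagaatactctg
Hist3h2a, 50% G+C: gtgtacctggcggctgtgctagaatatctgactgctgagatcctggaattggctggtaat
Hist3h2a, 35% G+C: aaggttctggtttagatgctagtgtttcta

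The gap between the probes of a gene was itself tested, over all 7115 probe pairs of the array, a comparison added after the data had been seen. In it 21.6% of pairs were called, 12.5% with a higher and 9.04% with a lower difference on the dimmer probe. The G+C-rich Hist1h1d probe lay 2.89 and 3.17 below its partner in the controls and 0.51 and 0.35 below it with phorone. Its difference exceeded that of its partner by 2.60 (SE 0.15, limma adjusted p = 0.00787 over all pairs). For Hist3h2a the A+T-rich probe's difference lay 1.15 below that of its partner (SE 0.12, limma adjusted p = 0.0103). The pairs of Hist1h2af (-0.36, adjusted p = 0.0789), Hist1h2bk (0.15, adjusted p = 0.406) and Hist1h4d (0.03, adjusted p = 0.882) were not called by limma. An exact two-sided permutation test of the 4 arrays cannot go below p = 0.333, which is its value for Hist1h1d and Hist3h2a.

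**Figure D3:**
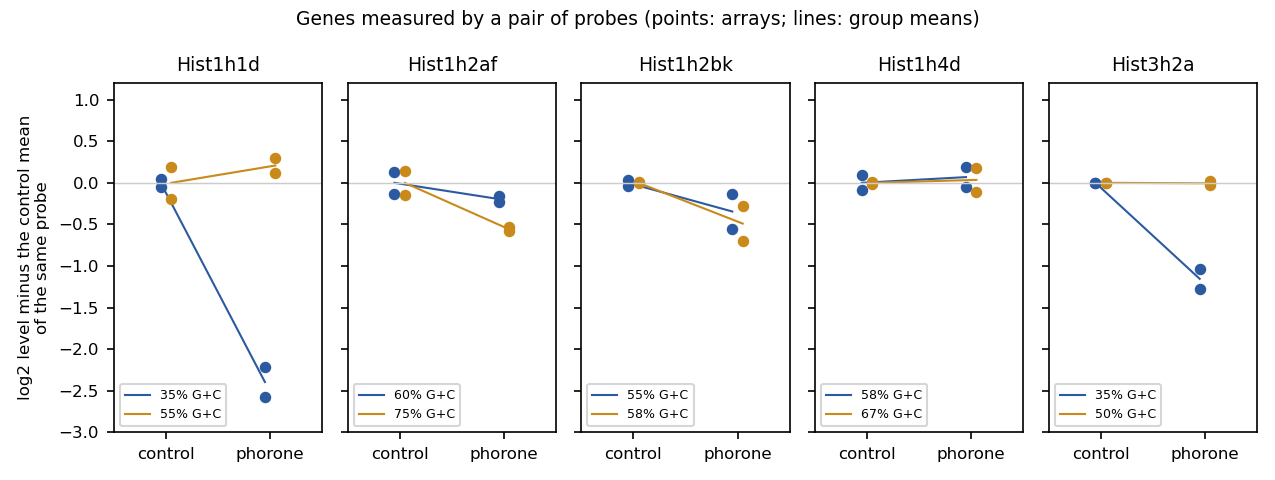
Log2 level of each probe minus its own control mean, for the 5 genes with a pair of probes; points are arrays (n = 2 per group), lines join group means, and colours mark the G+C content. The 35% G+C probes of Hist1h1d and Hist3h2a fall to -2.39 and -1.15 while their partners stay at 0.21 and -0.01.

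The same contrast can be laid out over all members, by groups of probe sequence that were chosen after their values had been seen and so carry no test. Of the histone probes, 6 hold at least 10 bases of the stem-loop at which these mRNAs end, searched on the probe's own strand as GGCTCTT, any base, T, any base and AGAGCC. The full 16 bases are in 4 of 40628 gene probes, 0.00985%, all of them histone probes, and in none of the noncoding probes. The stretch of 30 bases with the stem-loop in capitals is given for each.
Hist1h3h: tttttcaaaGGCTCTTTTCAGAGCCaccca
Hist1h3g: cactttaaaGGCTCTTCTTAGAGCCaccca
Hist1h3a: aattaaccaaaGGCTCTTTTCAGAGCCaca
Hist1h2ag: cgccaacaaaGGCTCTTTTCAGAGCCacct
Hist1h2ab: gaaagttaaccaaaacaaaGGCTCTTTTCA
Hist1h2ae: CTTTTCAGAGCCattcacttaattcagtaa

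Both H3 probes that rose, Hist1h3h and Hist1h3g, are among these 6. Hist1h2ab, at -1.22 and -0.25 in the controls against 0.25 and -0.17, and Hist1h2ae, at -2.89 and -3.39 against -2.25 and -2.80, were above in both phorone arrays but were not called. Hist1h3a and Hist1h2ag overlapped between groups. The median difference of the 6 was 0.70, and 5 lay above zero. The other histone probes under 48% G+C number 13, of which 11 were tested. Among them none rose, 6 fell (Hist1h1d, Hist2h2be, Hist3h2a, Hist1h1c, Hist1h2ac and Hist1h1t), and the median was -0.69. The 28 probes with 50% G+C or more had 1 called higher, 3 called lower and a median of -0.16. Over all tested gene probes, those under 48% G+C had a median of 0.13, with 26.2% called higher and 20.1% lower. Those with more had a median of -0.01, with 21.5% and 21.8%. The part of probe sequence and of sharing between genes in these differences was not tested.

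**Figure D4:**
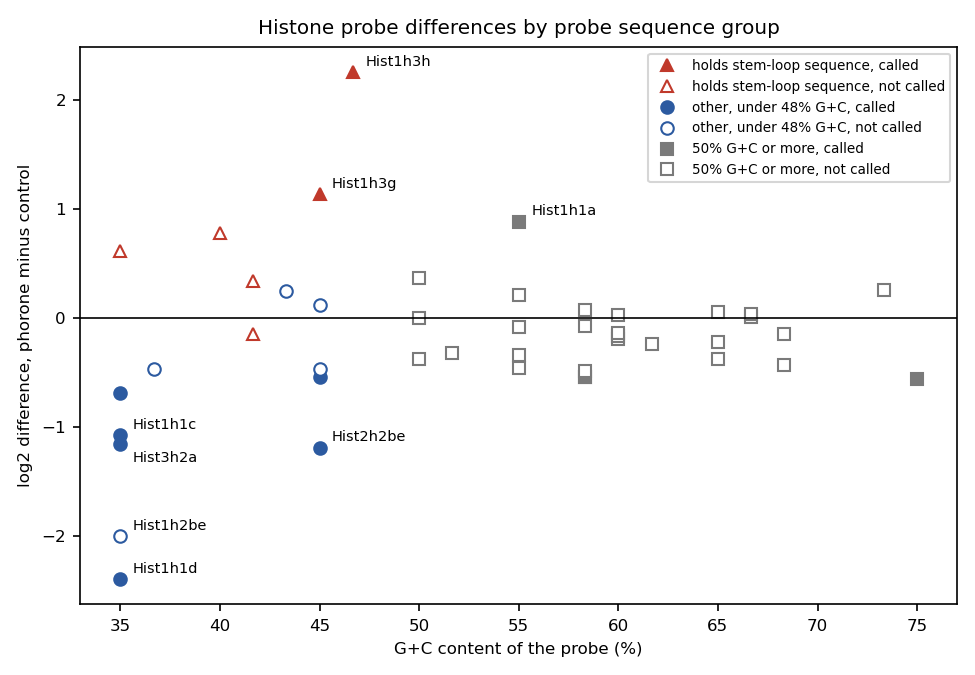
Log2 difference (phorone minus control) of the 45 tested histone probes against the G+C content of the probe; triangles hold stem-loop sequence, circles are other probes under 48% G+C, squares have 50% or more, and filled symbols were called. Differences beyond 1 in size appear under 48% G+C in this plot, upward for triangles and downward for circles.

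The genes that serve histone synthesis were read from lists, with the brightest tested probe standing for each gene. Over all 17092 genes so measured 44.9% were called, 23.8% higher and 21.1% lower, with a median difference of 0.08. Genes of S phase and DNA replication were mostly higher: of 25 measured, 15 rose and 4 fell, with a median of 0.59. Mcm3, a subunit of the replicative helicase, rose from 0.35 and 0.31 to 1.55 and 1.61, by 1.25 (SE 0.12, limma adjusted p = 0.00203). Cdt1, which loads that helicase, rose by 1.54 (limma adjusted p = 0.00159). Cdk2, an S phase kinase, rose by 1.55 on its brightest probe, while its other probe differed by -0.17. The genes that fell were Tk1, a thymidine kinase, by 1.87 (limma adjusted p = 0.00341), the ribonucleotide reductase subunit Rrm2 by 0.84, the cyclin Ccna2 by 0.63, and the cyclin Ccne1 by 0.44. The number that rose was 7 without phorone replicate 2, and 1 or 2 genes fell without control replicate 1, control replicate 2 or phorone replicate 1.

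Of 19 measured names that act in the transcription and 3′ end processing of histone mRNA, 13 rose and none fell by limma (1 was lower at an unadjusted p below 0.05), with a median of 0.71. Of these names, Ars2 and Srrt stand for 1 gene. Slbp, the stem-loop binding protein, read 2.80 and 2.73 in the controls and 3.43 and 3.51 with phorone. It rose by 0.71 (SE 0.12, limma adjusted p = 0.00972). Npat, the coactivator of histone gene transcription, rose by 0.65 (limma adjusted p = 0.0113), and Casp8ap2 (also called FLASH), which works in both steps, by 0.89 (limma adjusted p = 0.0112). Lsm11, a protein of the U7 particle that directs the cut beyond the stem-loop, rose by 1.09 (limma adjusted p = 0.00291). The largest rises were those of Cstf2 (1.87, with -0.04 on its other probe) and Cstf3 (1.12), subunits of the cleavage stimulation factor. The number that rose was 6 without phorone replicate 2, and 1 fell without control replicate 2. In the polyadenylation machinery 7 of 14 rose and none fell by limma (median 0.71; 0 lower at an unadjusted p below 0.05), led by Cpsf4 (1.21), Fip1l1 (1.11) and Cstf1 (1.04), and 11 rose without control replicate 1 but 5 without either phorone array. Of 18 genes of histone mRNA decay 8 rose and 1 fell (median 0.47). Tut1, a uridylyl transferase, rose by 1.18, Lsm5 by 0.86 and Lsm1 by 0.80, and the kinase gene Prkdc fell by 0.44. The number that rose was 2 without either phorone array, and none fell without any of the 4 arrays.

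Histone chaperones carry new histones to DNA. Of 22 measured, 11 rose and none fell by limma (1 was lower at an unadjusted p below 0.05), with a median of 0.41. Atrx, which works with Daxx on histone H3.3, rose from -4.36 and -4.16 to -2.36 and -1.94, by 2.11 (limma adjusted p = 0.00164). Nasp, a chaperone of H1 and H3, rose by 1.08 (limma adjusted p = 0.00329), Chaf1a, a subunit of the assembly factor CAF-1, by 0.99 (limma adjusted p = 0.00526), and Anp32e, a chaperone of H2A.Z, by 1.51 with -0.98 on its other probe. Asf1b differed by 0.35 (adjusted p = 0.210 by limma). Without phorone replicate 1 or phorone replicate 2 the number that rose was 7, and 1 fell without control replicate 1.

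The histone variants, whose genes stand outside the clusters and are mostly expressed throughout the cell cycle, gave 1 higher and 4 lower of 13 measured names, with a median of -0.09. Under spike-in scaling no variant was called lower, 1 was called higher, and the median came to 0.35. The falls included linker histones: H1fx went from -0.52 and 0.21 to -1.62 and -1.52 and fell by 1.42 (SE 0.26, limma adjusted p = 0.0109), and H1f0 by 0.55 (limma adjusted p = 0.0408). Of the macroH2A names, H2afy2 fell by 0.87 and H2afy3 by 1.00, while H2afy differed by 0.06 and was not called. Whether these names stand for separate genes was not checked. The oocyte linker histone H1foo, dim on all arrays, rose by 0.74. The replacement histones were not called on their brightest probes: H3f3a differed by -0.37, H3f3b by -0.09, H2afz by 0.10 and H2afx by 0.32. Nor was the centromeric Cenpa (0.07). The 3 H3f3a probes ran from -0.37 to 0.02, the 3 H3f3b probes from -0.61 to -0.09 and the 2 H2afx probes from 0.32 to 0.44. Without phorone replicate 2 the number called lower was 2, and none was called higher without control replicate 2 or without phorone replicate 2. Of 6 measured histone and protamine genes of testis and oocyte, H1foo rose and Hist1h1t fell, and none was called without control replicate 2 or without phorone replicate 2. Among markers of other cell types, Cd68 of the blood cell list rose by 1.26 and Ddx4 of the male germ cell list was called higher with neither control array well above background. No epithelial marker was called with all arrays, 1 was called higher without phorone replicate 2 and 1 lower without control replicate 2. Epcam, Cdh1 and Ptprc did not pass the filter.

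**Figure D5:**
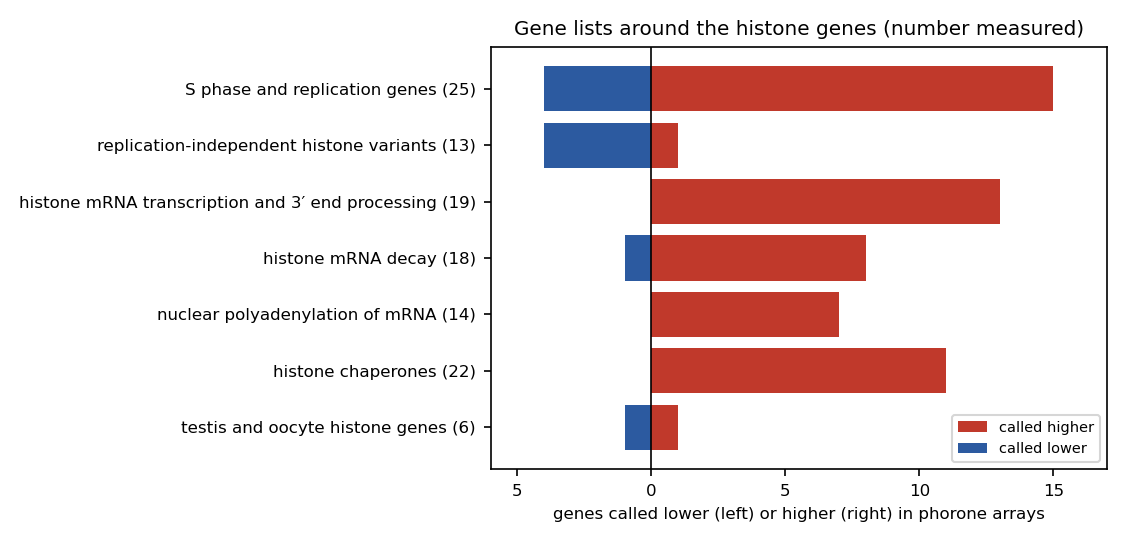
Number of genes called higher (right, red) and lower (left, blue) with phorone in each list around the histone genes, with the number measured in brackets. The processing list has 13 higher and 0 lower and the S phase list 15 and 4, while the variants have 1 and 4. On the brightest tested probe of each gene, the clustered histone genes had 3 and 7 of 40. Over all genes so measured, 23.8% were called higher and 21.1% lower.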

How the data were processed

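Arrays were read from the scanner output. The deposited intensity of each spot was extracted, per the file headers, by Feature Extraction 10.7.3.1 (Agilent, 1 colour, Cy3). Tested on the files, the background subtracted was a surface fitted across the array. The authors' deposited table holds log2 values that equal the log2 processed signal minus 1 number per array (SD at most 0.0223); its column medians were -4.39, -4.35, -4.37 and -4.30. On each array 51.1% to 52.7% of the spots stood well above background, at a 75th percentile of 563 to 747 and with 0 saturated. Precision is limited by the small number of arrays.

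From the processed signal, log2 values minus each array's 75th percentile over probes outside the controls were taken, outlier spots left out and spots of a probe averaged. Groups, taken from the sample titles, were set against each other by limma (version 3.58.1, in R 4.3.3, two-sided, 2 residual and 3.07 prior degrees of freedom). P-values were adjusted by Benjamini-Hochberg over all 24207 kept gene probes. On simulated data, with 100 probes changed at each size, the fit recovered 67% of log2 changes of 2 and 94% of those of 4. Far fewer probes were changed there than were called on these arrays. The median, and the counts, were recomputed under 16 alternatives. The members, lists and rule for named genes (up to 5 called probes each way per type, up to 3 detected in a single group, the brightest, the 2 smallest differences, up to 3 genes each way per list, and a fixed set) were chosen with earlier results of these data known; every other member is given too. Some listed genes have probes of opposite sign: of those called on the brightest probe, Cdk2, Cstf2, Anp32e, Cdc6, Eri1, Lsm6, Nap1l1, Chaf1b and Cpsf2. The labels do not say that replicate numbers pair the samples, and the fit did not pair them. Deviations of arrays with the same number correlated at -0.041, which cannot show whether they were handled together. Names follow the array design; probe sequences are the array's and promoters are RefSeq's. Noncoding probes were not analysed here beyond 1 alternative.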

Additional observations from a re-analysis of the deposited data

How the results depend on the processing

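The number of histone probes called higher stayed between 2 and 4 under all 16 alternatives. The number called lower was 9, with 45.8% of all probes called. It was 13 under normexp and 12 with the filter on all 4 arrays, where 50.7% and 48.3% of all probes were called. Under quantile or detected-percentile scaling it was 11 (45.3% and 44.8% of all probes). It was 2 under spike-in scaling (25.0%) and 4 when dim probes were kept (18.4%). Both this number and the share of all probes called were smaller when 1 array was left out. The median difference was 0.27 under spike-in scaling, and stayed between -0.33 and -0.06 under every other alternative. Hist1h1t reversed to 0.0154 with normexp. The call of Hist1h3g held under all 16 alternatives, and those of Hist1h1d (35% G+C) and Hist1h3h under the 15 each that tested them. Hist1h1c, Hist2h2be and Hist3h2a (35% G+C) missed the threshold under spike-in scaling alone. The calls of Hist1h1t and Hist3h2bb held under 8 of 16 alternatives, that of Hist1h2ac under 10 of 16, that of Hist1h2af under 8 of 14 and that of Hist1h2bm under 6 of 16, among those lost being the authors' deposited values. Hist1h2bc was called lower under normexp, quantile scaling and the filter on all 4 arrays. With the replicate number as a block, a pairing the labels do not state, 4 histone probes were called higher and 6 lower, and 40.3% of all probes were called. Under spike-in scaling the lists had 12 of S phase and 3 of decay higher, and with no filter 8 and 4. The share of all probes called was 25.0% and 18.4% under these settings. With 2 arrays a group, intervals on single probes stay wide.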
